A study of Mus musculus with 15 samples.

Results

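ELL2 is an elongation factor of RNA polymerase II that B cells induce as they become antibody-secreting cells. The rows described here are exon regions and exon junctions whose level was lower in LPS-cultured B cells lacking ELL2, in genes whose median exon region was about the same in both genotypes. A row is either an exon region (PSR, a probe set within an exon) or a junction (JUC, probes across the join of exons). A row was taken when 4 conditions held. The median exon region of its gene differed by under 0.5 between ELL2 cko +LPS and WT +LPS cells, and the row itself was lower by at least 1.5 in ELL2 cko +LPS. The WT +LPS mean of the row was at least 8, and the highest ELL2 cko +LPS array lay below the lowest WT +LPS array. All of these are on the log2 scale of the deposited values. The rule found 1094 rows in 849 genes, of 580167 rows with a single gene symbol and of 725678 rows in all. It could have been met by 118073 rows in 14252 genes, those with a stable gene median and a bright enough row, and 0.927% of these met it. The rows were chosen by the measured values of the LPS-cultured arrays, and for that reason the genotype difference with LPS is described here without a test.

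The arrays came from splenic B cells of C57BL/6 mice, purified on magnetic columns (MACS). The groups were ELL2 cko cells cultured with LPS for 72 hours (ELL2 cko +LPS, 3 arrays), wild-type cells cultured in the same way (WT +LPS, 4 arrays), ELL2 cko cells taken at once after purification (ELL2 cko -LPS, 4 arrays) and wild-type cells taken at once (WT -LPS, 4 arrays). Per the labels the knockout was conditional; the promoter of the Cre and the deleted part are not given in the sources used here. LPS, from the outer membrane of bacteria, activates B cells to divide and to secrete antibody. With no culture lacking LPS, its effect cannot be told apart from that of the culture. In these bulk samples, fewer cells of a type and less RNA per cell cannot be told apart either.

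Array medians lay between 5.72 and 5.78. The mean of 9 measured B cell markers was 14.53, 14.53 and 14.66 in ELL2 cko +LPS, against 12.01, 14.05, 12.61 and 14.30 in WT +LPS, and 14.81, 14.69, 16.19 and 16.13 in ELL2 cko -LPS, against 16.01 to 16.35 in WT -LPS. It was thus lowest in WT +LPS replicates 1 and 3, and without LPS in ELL2 cko replicates 1 and 2. The targeted gene, Ell2, had gene values of 14.15, 14.16 and 14.14 in ELL2 cko +LPS, against 16.86, 15.90, 16.56 and 15.73 in WT +LPS, so Ell2 itself is no member gene. In 4 ELL2 cko arrays markers of other cells stood above the other arrays. The mean of 16 measured T cell markers was 10.90 and 10.46 in ELL2 cko -LPS replicates 1 and 2 and 6.65 and 6.92 in ELL2 cko +LPS replicates 2 and 3, and lay between 4.83 and 5.07 in each of the other 11 arrays. The 12 neutrophil markers averaged 11.34 and 10.94 in the first pair of these arrays, and at most 5.09 in any other array. ELL2 cko +LPS replicate 1, at 4.86 for T cell markers, was the single ELL2 cko +LPS array at the WT level of these. Results that rest on the 4 arrays, below called those with markers of other cells, are therefore given with and without them. The 13 monocyte and macrophage markers averaged 6.601 to 8.771 in the 4 arrays, but the other ELL2 cko arrays lay above WT too. Their mean was 5.861 in ELL2 cko +LPS replicate 1, against 5.225 to 5.649 in WT +LPS. Without LPS it was 5.905 and 6.48 in ELL2 cko replicates 3 and 4, against 5.645 to 5.892 in WT. Xist, the RNA of the inactive X chromosome in females, was at 16.51 to 16.54 in all 3 ELL2 cko +LPS arrays, against 16.13, 4.80, 5.38 and 15.89 in WT +LPS. The WT +LPS group thus held both sexes and the ELL2 cko +LPS group females alone.

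An elongating polymerase carries the splicing and polyadenylation machinery, and its speed is known to affect which exons and which 3′ end a transcript receives. In plasma cells the best known case is Ighm, the heavy chain gene of IgM, whose transcript is made either with a secretory or with a membrane 3′ end. Genes of the secretory pathway rise in such cells, driven in part by XBP1 and ATF6, which bind the ER stress response element of promoters, CCAAT and CCACG held 9 bases apart.

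Promoters are shown for 3 of the 12 genes with most member rows, picked after their values were seen, for a known role in protein secretion. Surf4 encodes a cargo receptor between endoplasmic reticulum and Golgi, Qsox1 a sulfhydryl oxidase that forms disulfide bonds in secreted proteins, and Gorasp2 a protein that holds Golgi stacks together. The sequences are the 250 bases before the annotated start of each gene, in the direction of transcription, from RefSeq on GRCm38.p6, at chr2:26933512-26933761 on the minus strand for Surf4, chr1:155812900-155813149 on the minus strand for Qsox1 and chr2:70661259-70661508 on the plus strand for Gorasp2. Capitals mark CCACG on either strand (CGTGG on the strand shown).
Surf4: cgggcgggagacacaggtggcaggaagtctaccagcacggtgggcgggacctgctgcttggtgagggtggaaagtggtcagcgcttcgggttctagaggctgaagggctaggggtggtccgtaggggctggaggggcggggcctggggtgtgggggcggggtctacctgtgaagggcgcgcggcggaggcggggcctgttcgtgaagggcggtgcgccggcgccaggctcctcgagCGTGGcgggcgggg
Qsox1: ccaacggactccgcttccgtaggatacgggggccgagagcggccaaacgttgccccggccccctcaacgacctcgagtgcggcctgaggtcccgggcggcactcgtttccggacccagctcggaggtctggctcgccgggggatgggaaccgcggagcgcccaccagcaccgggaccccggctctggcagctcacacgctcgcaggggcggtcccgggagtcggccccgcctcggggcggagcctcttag
Gorasp2: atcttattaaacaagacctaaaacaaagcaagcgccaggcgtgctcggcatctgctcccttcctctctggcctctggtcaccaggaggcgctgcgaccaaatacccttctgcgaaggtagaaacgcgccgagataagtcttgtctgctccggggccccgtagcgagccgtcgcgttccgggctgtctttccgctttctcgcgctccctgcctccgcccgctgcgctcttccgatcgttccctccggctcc
The Surf4 promoter held 1 such match, 14 bases before the start, and the other promoters shown held no match to CCACG or CCAAT on either strand. Over 15 promoters of 10 of the 12 genes that matched the table, 2 held CCAAT, 5 held CCACG and 0 held the full element. In 32851 mouse promoters of the same length, 33.8% held CCAAT, 28.3% CCACG and 0.113% the full element. A match is a string of letters, from which nothing follows about binding.

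The members were mostly junctions: 785 junctions and 309 exon regions, or 28.2% exon regions, whereas 54.9% of the rows that could have met the rule were exon regions. Most genes had a single member row (727 of 849), 122 had at least 2 and 43 at least 3, and the most was 11. The difference between ELL2 cko +LPS and WT +LPS had a median of -1.91 over the members, with quartiles of -2.38 and -1.65 and a largest fall of -5.74. Of the 1094 rows, 609 were lower by under 2 and 106 by 3 or more. Means lay between 4.23 and 16.95 (median 8.56) in ELL2 cko +LPS and between 8.01 and 18.79 (median 10.62) in WT +LPS, and the median SD between arrays was 0.585 in ELL2 cko +LPS and 0.602 in WT +LPS. Among rows that could have met the rule, 6.23% lay lower in ELL2 cko +LPS with no overlap of arrays. The mirrored rule, for rows at least 1.5 higher in ELL2 cko +LPS, found 539 rows in 407 genes, and 40 genes held rows of both kinds.

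Just inside the limit on the row difference were rows of Rabl2 (-1.5004) and Ndst1 (-1.501), and just outside it rows of Mad2l1 and Trf (-1.4996 each). At the limit on the WT +LPS level, rows of Vat1 (8.0061) and Phka2 (8.0086) were inside and rows of Rsph1 (7.9996) and Letmd1 (7.9987) outside. At the limit on the gene median, Kif20b (-0.4993) and Gpr55 (-0.4978) were inside and Zbtb8a (-0.5008) and Cry1 (-0.5025) outside. By the gap between the groups, Spata20 (0.0006) and Extl2 (0.0021) were inside and Umad1 (-0.0044) outside. Rows on the 2 sides of each limit thus differed by far less than the median SD between arrays of a group.

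The word unchanged holds for the gene median as the rule defines it, and for some genes not for their brighter exon regions. Of the 849 genes, 195 had no exon region with a WT +LPS mean of at least 8, 215 had 1 or 2, and 439 had at least 3. In 143 of these 439 (32.6%) the median of the bright exon regions was itself lower by at least 0.5 in ELL2 cko +LPS, and in 60 by at least 1. It was within 0.5 in 271 and higher by at least 0.5 in 25. Over all genes with a stable median and at least 3 bright exon regions, it was lower by at least 0.5 in 575 of 5174 (11.1%). The member rows are among the bright regions of their genes and were lower by the rule, so these shares are not independent of it. Over bright exon regions that were no members, the median was lower by at least 0.5 in 110 of 409 member genes (26.9%) and in 542 of 5144 genes that could have met the rule (10.5%), again in the arrays the rule used. Of the member rows, 414 (37.8%) were in genes whose value in WT +LPS was below that of the median gene (5.11), against 13.3% of rows that could have met the rule. Counted by genes the shares were close: 380 of the 849 member genes (44.8%), against 41.8% of genes that could have met the rule. If gene values were taken from bright exon regions alone, the rule found 573 rows, and 442 of them were members. This alternative was added after seeing the data.

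In the 12 genes with most member rows, which hold 98 of them, the bright exon regions included many of the members themselves, such as 4 of 4 in Zfp64, 7 of 8 in Tg and 6 of 8 in Surf4. With the members included, the median of the bright exon regions was lower by at least 0.5 in 11 of the 12 genes, from -1.82 in Gorasp2 to -0.72 in Plekhm2. Without them it differed by -1.41 in Gorasp2 and Pigk, -1.04 in St7, -0.71 in Rap1gap2 and -0.68 in Plekhm2, but by -0.03 in Qsox1, 0.13 in Rere and 2.02 in Hivep3. It differed by -0.48 in Cacna1s over 4 regions, by -0.20 in Surf4 over 2 and by -1.41 in Tg over 1, and in Zfp64 none was left. The genes thus differed in the bright exon regions that were left. The rule had taken out regions with a fall of at least 1.5 in these same arrays, so what was left leans towards no fall. A small difference there does not show that the rest of a gene was unaffected. For each gene described next, the values are those of its member with the largest difference. In Surf4, 10 of 18 rows were members, and the median of its 8 bright exon regions was 13.72 in ELL2 cko +LPS and 15.53 in WT +LPS, while the median of all 11 regions was 11.89 in ELL2 cko +LPS and 12.19 in WT +LPS. The Surf4 row shown, a junction, had 12.75, 12.30 and 12.08 in ELL2 cko +LPS, against 15.33, 13.95, 14.70 and 14.12 in WT +LPS. The 3 ELL2 cko arrays lay close together, and the lowest WT array was 1.20 above the highest of them. In Qsox1, 11 of 34 rows were members, and the one shown, an exon region, had 9.57, 8.68 and 9.96 in ELL2 cko +LPS, against 13.11, 10.70, 12.13 and 11.50 in WT +LPS, with WT replicate 2 nearest to the ELL2 cko arrays. In Gorasp2, 9 of 38 rows were members, and the one shown had 10.37, 9.55 and 9.85 in ELL2 cko +LPS, against 12.47, 12.70, 13.65 and 12.64 in WT +LPS. Here the gap between the groups was 2.11, with the WT arrays close to one another except replicate 3.

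**Figure D1:**
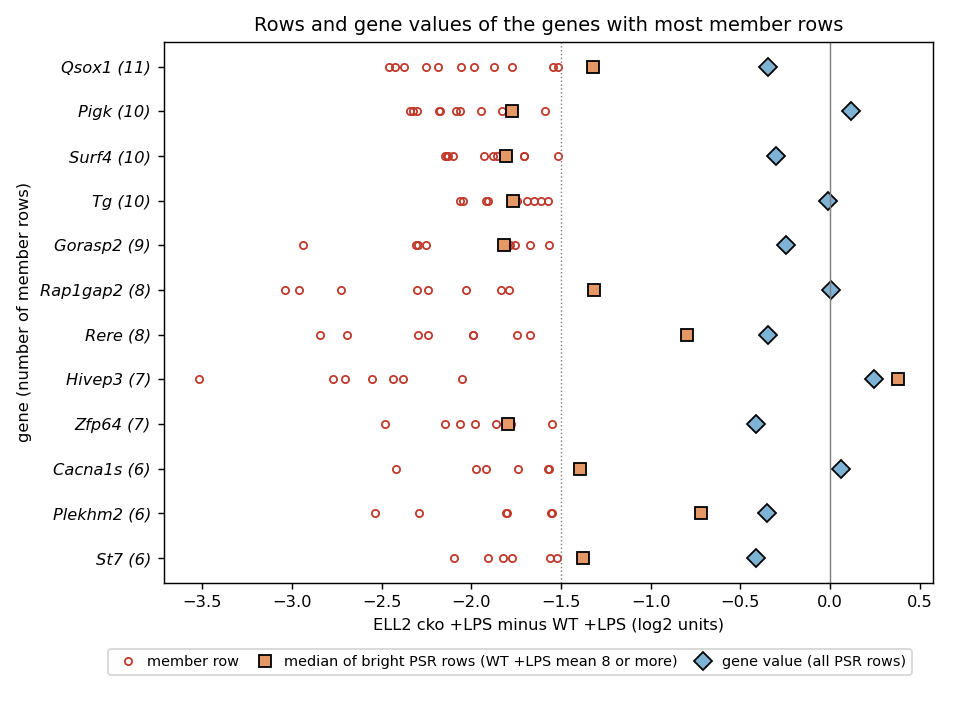
Differences between ELL2 cko +LPS and WT +LPS (log2 units, x axis) in the 12 genes with most member rows (y axis, number of member rows in brackets). Open circles are member rows, squares the median of exon regions with a WT +LPS mean of at least 8 (members included), diamonds the median of all exon regions, and the dotted line the limit of -1.5; the squares lie left of -0.5 in every gene but Hivep3.

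Pigk, the catalytic subunit of the enzyme that attaches GPI anchors, had 10 member rows of 54, with differences from -2.34 to -1.59. The one shown had 11.10, 9.48 and 9.33 in ELL2 cko +LPS, against 12.50, 11.29, 12.96 and 12.50 in WT +LPS, and replicate 1 of the ELL2 cko arrays lay 0.19 below the lowest WT array. Tg, thyroglobulin, the thyroid hormone precursor, had 10 member rows of 113 and a gene value of 5.11 in ELL2 cko +LPS and 5.13 in WT +LPS, near the median gene. The one shown had 7.92, 8.55 and 8.37 in ELL2 cko +LPS, against 10.41, 10.02, 11.08 and 9.86 in WT +LPS. In the RefSeq annotation the Tg locus overlaps Sla, an adaptor protein gene of lymphocytes, the Pigk locus overlaps St6galnac5, and the Surf4 locus overlaps Surf2 and Stkld1. Whether RNA of an overlapping gene reaches these rows was not tested.

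Rap1gap2, which turns off the small GTPase Rap1, had 8 member rows. The one shown had 8.85, 7.54 and 7.37 in ELL2 cko +LPS, against 11.57, 9.98, 12.32 and 9.95 in WT +LPS. Rere, a transcriptional corepressor of the atrophin family, had 8, and the one shown had 11.06, 11.23 and 9.32 in ELL2 cko +LPS, against 14.39, 11.81, 14.06 and 13.27 in WT +LPS. Hivep3, a zinc finger protein that binds kappaB-like sites, was the exception among the 12: its 7 members had differences from -3.52 to -2.05, and its bright exon regions, members included, were higher by 0.38 as a median. The one shown had 9.89, 9.66 and 9.002 in ELL2 cko +LPS, against 13.54, 12.85, 13.16 and 12.61 in WT +LPS, the widest gap of the rows shown for the 12 genes.

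The other 4 of the 12 genes had 25 member rows in all. Zfp64, a zinc finger transcription factor, had 7, from -2.48 to -1.55. Plekhm2, which links lysosomes to kinesin, had 6, from -2.54 to -1.55. Cacna1s, the calcium channel subunit of skeletal muscle, had 6, from -2.42 to -1.57, and St7 had 6, from -2.10 to -1.52. Of the 98 rows of the 12 genes, 69 were at least 1.5 lower in ELL2 cko +LPS replicate 1 alone, the array with T cell markers at the WT level.

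The 10 rows that fell most relative to their gene (1 per gene) had differences between -5.74 and -3.79. In 4 of them both groups without LPS were low and WT +LPS was the highest group. A junction of Bnipl had 5.09, 6.35 and 6.37 in ELL2 cko +LPS, against 12.23, 9.86, 12.89 and 11.74 in WT +LPS, and between 4.76 and 5.96 in the 8 arrays without LPS. A junction of Cyp2f2, a lung cytochrome P450, had 4.44, 3.89 and 4.35 in ELL2 cko +LPS, against 11.16, 9.28, 10.01 and 8.23 in WT +LPS. The Cyp2f2 row had 4.04, 4.11, 4.24 and 3.12 in ELL2 cko -LPS and 2.75, 2.53, 2.82 and 3.45 in WT -LPS, so all 3 ELL2 cko +LPS arrays lay above all WT -LPS arrays. A junction of Scnn1a, a subunit of the epithelial sodium channel, had 7.64, 6.35 and 6.70 in ELL2 cko +LPS, against 11.06, 12.03, 11.40 and 10.52 in WT +LPS. A junction of Cdh13, a cadherin with a GPI anchor, had 9.31, 7.22 and 7.59 in ELL2 cko +LPS, against 12.67, 11.66, 13.15 and 11.71 in WT +LPS. All 4 genes had gene values near or below that of the median gene in WT +LPS, from 4.06 for Cdh13 to 5.24 for Bnipl, so the named gene as a whole was dim. Over all members, 106 rows (9.69%) had means below the median of all values (6.02) in both groups without LPS, against 0.335% of the rows that could have met the rule. Of these 106 rows, 84 were junctions, 54 were in genes below the median gene, and 90 were at least 1.5 lower in ELL2 cko +LPS replicate 1.

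In a second kind of row WT arrays were high with and without LPS, and the ELL2 cko arrays with markers of other cells were low. An exon region of Engase, a cytosolic enzyme that releases N-glycans, had 15.02, 11.11 and 10.75 in ELL2 cko +LPS, against 16.03, 16.78, 17.46 and 16.43 in WT +LPS. The same region had 12.68, 11.05, 15.45 and 15.85 in ELL2 cko -LPS, against 16.26, 16.50, 16.05 and 15.74 in WT -LPS. The low ELL2 cko arrays were replicates 2 and 3 with LPS and replicates 1 and 2 without. A junction of Slc6a2, the noradrenaline transporter, had 11.39, 8.90 and 8.83 in ELL2 cko +LPS, against 13.00, 13.37, 14.92 and 14.38 in WT +LPS, and 9.41, 9.20, 12.95 and 13.14 in ELL2 cko -LPS, against 12.55 to 13.88 in WT -LPS. A junction of Abcd4, a lysosomal transporter of vitamin B12, had 8.95, 6.19 and 5.45 in ELL2 cko +LPS, against 10.34, 10.55, 12.45 and 11.69 in WT +LPS, and 5.94, 6.78, 9.78 and 10.32 in ELL2 cko -LPS, against 9.58 to 11.33 in WT -LPS. In these 3 rows the 4 ELL2 cko arrays with markers of other cells were the lowest of the 7 ELL2 cko arrays, and the part of the other cells in this was not tested.

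Of the last 3 of the 10 rows, one more was lowest in the same arrays. An exon region of Rufy2, an endosomal protein, had 4.40, 7.49 and 8.65 in ELL2 cko +LPS, against 11.36, 12.35, 10.96 and 9.85 in WT +LPS, and it was lowest in replicate 1. A junction of Trim14, an adaptor of antiviral signalling, had 10.27, 7.69 and 8.36 in ELL2 cko +LPS, against 12.06, 11.79, 13.80 and 12.78 in WT +LPS. It had 8.10, 9.09, 10.24 and 10.79 in ELL2 cko -LPS, against 9.73, 11.04, 10.84 and 10.66 in WT -LPS, so the 4 ELL2 cko arrays with markers of other cells were again the lowest. A junction of Sox5, an HMG box transcription factor, had 8.28, 5.21 and 7.08 in ELL2 cko +LPS, against 10.55, 9.98, 13.63 and 8.40 in WT +LPS, with a gap of 0.12 between the groups. The Rufy2 locus overlaps Hnrnph3 in RefSeq.

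**Figure D2:**
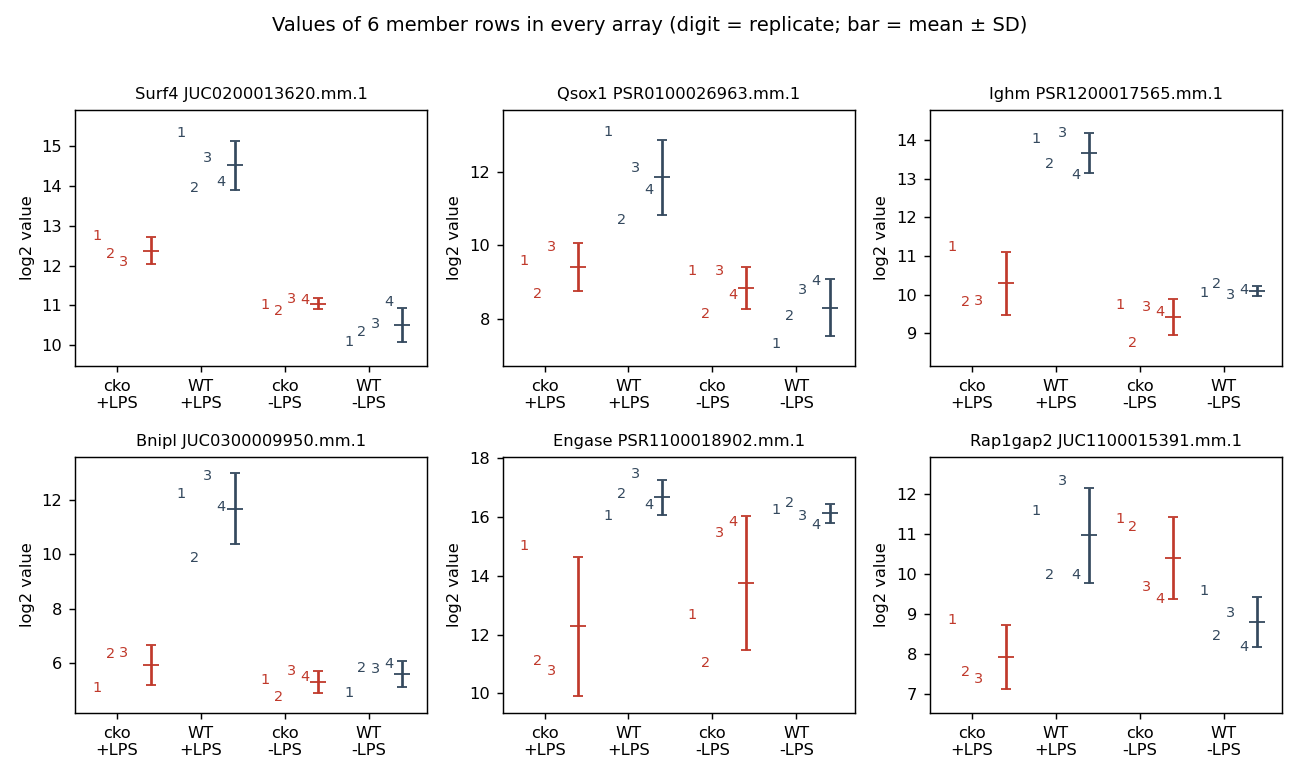
Log2 values of 6 member rows in every array; digits are replicate numbers, bars the mean ± SD of each group, and the groups from left to right are ELL2 cko +LPS (3 arrays), WT +LPS (4), ELL2 cko -LPS (4) and WT -LPS (4). Surf4, Qsox1, Ighm and Bnipl are highest in WT +LPS, the Engase region is low in ELL2 cko +LPS replicates 2 and 3 and ELL2 cko -LPS replicates 1 and 2, and the Rap1gap2 junction is higher in ELL2 cko than in WT without LPS.

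Ighm, the IgM heavy chain, had 2 member rows. Its gene value was 19.77 in ELL2 cko +LPS and 19.81 in WT +LPS, and the table's highest value was 19.93, which leaves little room for a difference. The exon region had 11.23, 9.81 and 9.83 in ELL2 cko +LPS, against 14.02, 13.37, 14.18 and 13.08 in WT +LPS. The junction had 8.27, 7.92 and 7.74 in ELL2 cko +LPS, against 10.71, 9.60, 11.18 and 9.93 in WT +LPS. The gap between the highest ELL2 cko and the lowest WT array was 1.85 for the exon region and 1.34 for the junction, and replicate 1 was the highest ELL2 cko array in both. Without LPS the exon region had 9.74, 8.75, 9.68 and 9.54 in ELL2 cko, against 10.03, 10.27, 9.98 and 10.11 in WT (difference -0.67 ± 0.25, SE, limma adjusted p = 0.65). The junction differed by -0.05 ± 0.31 there (adjusted p = 0.979). The positions of the rows within the gene were not used here, so neither is assigned to the secretory or the membrane end.

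The fall was unequal across the 3 ELL2 cko +LPS arrays. Relative to the WT +LPS mean the median over the 1094 rows was -1.55 in replicate 1, -2.23 in replicate 2 and -2.12 in replicate 3. Replicate 1 was the highest of the 3 in 717 rows, replicate 2 in 170 and replicate 3 in 207. In replicate 1 alone, 581 rows were lower by at least 1.5 and 513 were not, and 407 rows were lower by at least 1.5 in each array. The WT +LPS arrays were unequal too: relative to the ELL2 cko +LPS mean the median over the members was 2.23, 1.48, 2.39 and 1.80 in WT replicates 1 to 4, and replicate 2 was the lowest WT array in 612 rows. The mean of 9 markers of antibody-secreting cells was 11.90, 11.39 and 11.49 in ELL2 cko +LPS, against 14.43, 13.30, 14.35 and 13.42 in WT +LPS, so WT replicates 1 and 3 were highest in both and, as given above, lowest in B cell markers. The part of these marker levels in the members' difference was not tested.

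Without replicate 1 of ELL2 cko +LPS the rule found 2346 rows, of which 895 were members, and with replicate 1 as the sole ELL2 cko +LPS array it found 1701, of which 512 were members. The set of rows thus depends on which ELL2 cko +LPS arrays are used. With fewer arrays the condition of no overlap is also easier to meet, so these counts are not at a like strictness.

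**Figure D3:**
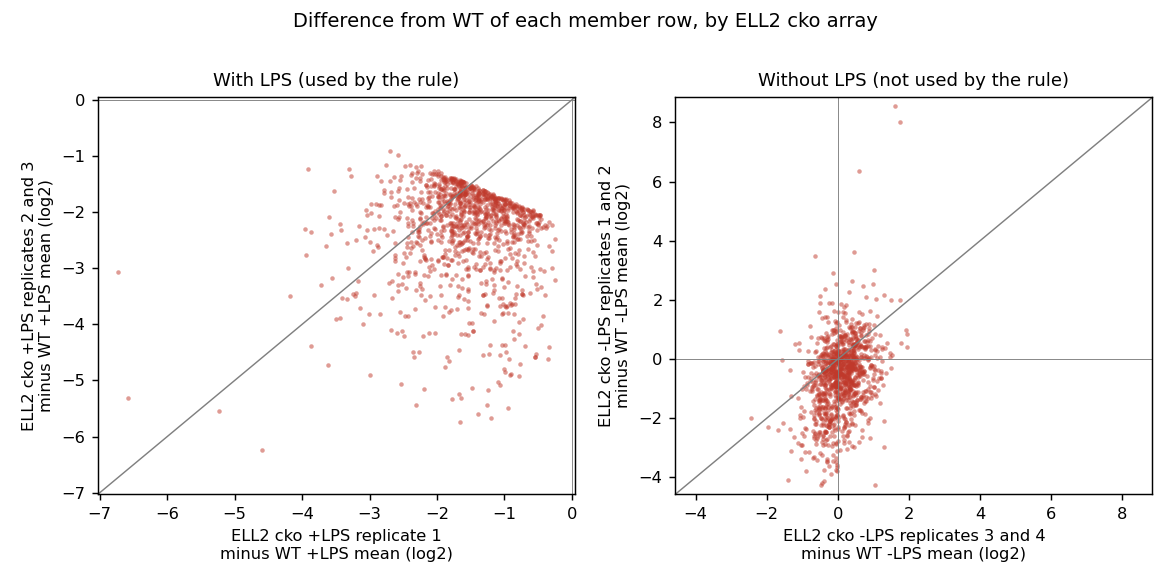
Each point is a member row. Left, ELL2 cko +LPS replicate 1 (x axis) and the mean of replicates 2 and 3 (y axis), each minus the WT +LPS mean in log2 units, values the rule used; right, ELL2 cko -LPS replicates 3 and 4 (x axis) and replicates 1 and 2 (y axis), each minus the WT -LPS mean, with the line of equal values in grey. More points lie below the grey line than above it in both panels, and on the right the spread downwards is along the y axis.

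In the arrays without LPS, which the rule did not use, no member row was called. Over all 580167 rows tested, 0% were called lower and 0% higher in ELL2 cko -LPS than in WT -LPS (limma, adjusted p under 0.05), and the smallest adjusted p among the members was 0.567. For the splicing index, the row minus the median exon region of its gene, 0% of 567231 rows and 0 of 1089 members were called, with a smallest adjusted p of 0.714 among members. Of the 849 gene values of member genes 0 were called, as over all 31265 genes (0%), with a smallest adjusted p of 0.0731. At an unadjusted p under 0.05, 156 members (14.3%) were lower, against 3.31% of all rows, and 55 (5.03%) were higher, against 4.26% of all rows. Among rows that could have met the rule, which are bright as the members are, 4.05% were lower and 5.66% higher. Against these rows the members were more often lower and slightly less often higher. For the splicing index the shares were 12.4% of members and 3.33% of all rows lower, and 5.23% of members and 3.63% of all rows higher. The groups did not overlap in 67 members that were lower (6.12%, against 1.98% of all rows) and 20 that were higher (1.83%, against 2.34%). Among rows that could have met the rule these shares were 2.41% lower and 3.26% higher.

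These shares rested in part on ELL2 cko -LPS replicates 1 and 2, the arrays with the highest markers of other cells. The median difference of the members from the WT -LPS mean was -0.55 in replicate 1, -0.49 in replicate 2, 0.08 in replicate 3 and 0.07 in replicate 4. Without replicates 1 and 2, 4.66% of members were lower at an unadjusted p under 0.05, against 2.49% of all rows, and 6.49% were higher, against 4.37% of all rows. The median over the members was then 0.07, against -0.21 with all 4 arrays. In the mean of replicates 1 and 2, 223 members (20.4%) were at least 1.5 lower, against 3.97% of rows that could have met the rule, and in the mean of replicates 3 and 4, 6 members (0.548%), against 0.101%. Of the 581 rows that were at least 1.5 lower in ELL2 cko +LPS replicate 1, 11.9% were at least 1.5 lower in ELL2 cko -LPS replicates 1 and 2, and of the other 513 rows 30.0% were.

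**Figure D4:**
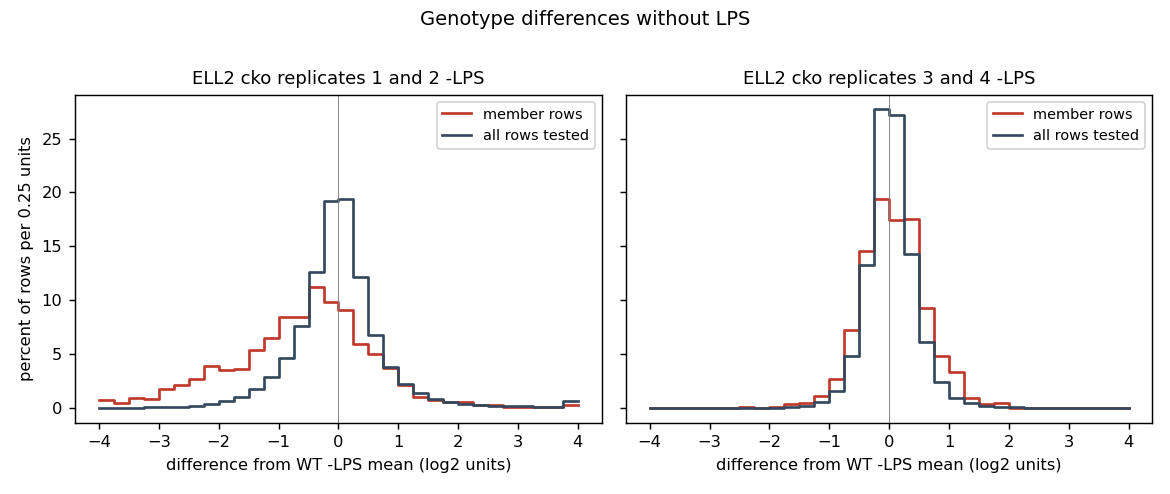
Share of rows (percent per 0.25 log2 units, y axis) by their difference from the WT -LPS mean (x axis; values beyond 4 stand in the outer bins) for ELL2 cko -LPS replicates 1 and 2 (left) and replicates 3 and 4 (right), for the 1094 member rows and all 580167 rows tested. The members are shifted to lower values on the left, where 20.4% are at or below -1.5, and centre near 0 on the right, where 0.548% are.

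In 76 members (6.95%) the ELL2 cko arrays with markers of other cells were at least 1.5 below WT, as a mean of each pair, and the others were less than 1 below it. The same held for 0.512% of rows that could have met the rule. The +LPS arrays in this criterion also served to pick the members as lower than WT. The difference between these shares is therefore in part built in and is a description with no test. Of these 76 rows, 54 were junctions and 28 were in genes below the median gene. Smarca2, an ATPase subunit of SWI/SNF chromatin remodelling complexes, shows how bright such rows could be. Its junction had 17.20, 13.89 and 14.00 in ELL2 cko +LPS, against 17.49, 18.07, 18.52 and 18.19 in WT +LPS. It had 15.48, 15.07, 17.44 and 17.86 in ELL2 cko -LPS, against 17.35, 18.21, 18.17 and 17.79 in WT -LPS. Of the T cell markers, Zap70 alone had a member row.

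Some members went the other way without LPS. The junction of Cd44, the hyaluronan receptor that activated lymphocytes raise, had 11.41, 10.15 and 9.56 in ELL2 cko +LPS, against 11.98, 11.97, 13.09 and 12.04 in WT +LPS. Without LPS it had 10.04, 10.31, 9.41 and 9.18 in ELL2 cko, against 8.15, 8.35, 8.03 and 7.49 in WT (difference 1.73 ± 0.30, SE, limma adjusted p = 0.586). All 4 ELL2 cko arrays lay above all WT arrays, replicates 3 and 4 included. The Rap1gap2 junction had 11.37, 11.17, 9.67 and 9.37 in ELL2 cko -LPS, against 9.56, 8.44, 9.02 and 8.17 in WT -LPS (1.60 ± 0.51, adjusted p = 0.649), and replicates 1 and 2 were the highest. In 6 members the mean of ELL2 cko -LPS replicates 1 and 2 was over 3 above WT -LPS: 2 exon regions of Trf, transferrin, at 8.02 and 8.55, and rows of Slco3a1 (6.37), Marchf8 (3.60), Rin2 (3.48) and Rap1gap2 (3.02). In replicates 3 and 4 these differences were 1.76 and 1.60 for Trf, 0.61 for Slco3a1, 0.45 for Marchf8, -0.65 for Rin2 and 1.01 for Rap1gap2. Rises over 3 in replicates 1 and 2 were no more common among members than among all rows. In the mean of these replicates, 0.274% of members were at least 3.75 above WT -LPS, against 0.595% of all rows. Between 3 and 3.75 the share of members was also below that of all rows.

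Set against the levels without LPS, most members were rows that WT cells raised in culture with LPS. In 657 members (60.1%, in 498 genes) WT +LPS was at least 1.5 above WT -LPS, which held for 8.65% of rows that could have met the rule. WT +LPS lay above WT -LPS with no overlap in 630 of the 657, and in 13.3% of all rows. The 657 rows were picked by a WT rise of at least 1.5 and all rows were not, so these 2 shares are not alike. The median change with LPS in these rows was 0.78 in ELL2 cko and 2.69 in WT, and in 118 of them the ELL2 cko change was at least 1.5. In ELL2 cko the change stayed within 0.5 in 186 of the 657 rows and was a fall of at least 0.5 in 43. Without LPS their median genotype difference was 0.04, and 459 of them were at least 1.5 lower in ELL2 cko +LPS replicate 1. Since the WT +LPS arrays served both the rule and this comparison, the WT change is a description with no test.

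Among the other members, in 159 rows the WT change lay within 0.5; the median change was -1.07 in ELL2 cko and 0.20 in WT. The median genotype difference of these rows without LPS was -0.99, made of -1.74 in ELL2 cko -LPS replicates 1 and 2 and -0.23 in replicates 3 and 4. Of the 159, 33 were at least 1.5 lower in ELL2 cko +LPS replicate 1. Another 263 rows rose in WT by 0.5 to 1.5, with a median change of -0.52 in ELL2 cko and 0.98 in WT, and 15 rows fell in WT by at least 0.5. Of the 263 rows the median genotype difference without LPS was -0.55, made of -1.15 in ELL2 cko -LPS replicates 1 and 2 and -0.02 in replicates 3 and 4. The WT -LPS arrays enter both the WT change and the difference without LPS, so the order of these groups of rows is a description that is partly built in.

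**Figure D5:**
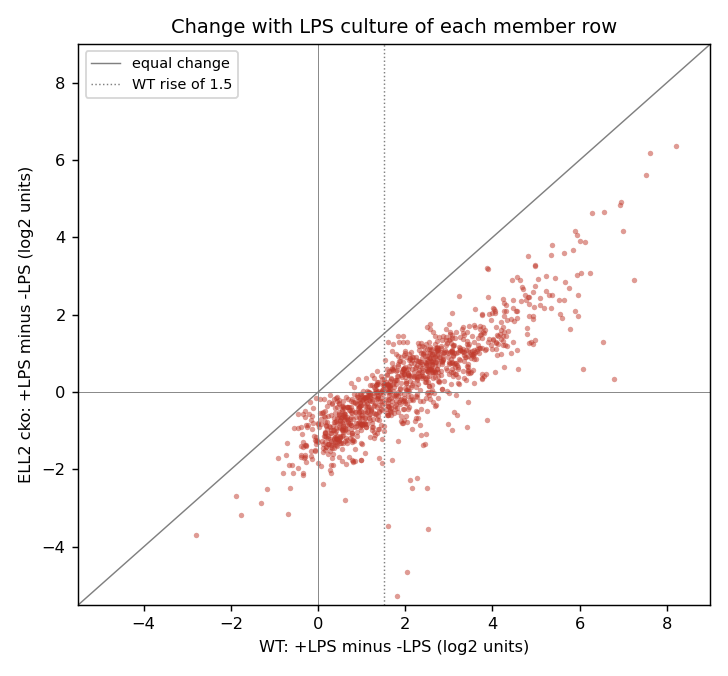
Change with LPS culture (+LPS mean minus -LPS mean, log2 units) of each member row in ELL2 cko (y axis) and in WT (x axis); the grey diagonal marks equal change and the dotted line a WT rise of 1.5. A single band runs below the diagonal, and 657 of 1094 rows lie at or right of the dotted line.

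Of the 98 rows of the 12 genes with most rows, 88 rose by at least 1.5 with LPS in WT, and 19 did in ELL2 cko, with a median change of 0.50 in ELL2 cko and 2.67 in WT. In 9 of the 12 genes every member rose by at least 1.5 in WT; in Rere 3 of 8 did, in Pigk 6 of 10 and in Rap1gap2 7 of 8. Surf4 rows changed by 0.71 to 1.62 in ELL2 cko and 3.20 to 4.32 in WT, and Qsox1 rows by -0.45 to 1.04 in ELL2 cko and 1.73 to 3.56 in WT. Tg rows rose in both, by 2.14 to 6.36 in ELL2 cko and 4.03 to 8.22 in WT. Rap1gap2 rows went in opposite directions, by -2.48 to -0.86 in ELL2 cko and 1.47 to 2.51 in WT. Without LPS the 98 rows had a median genotype difference of 0.28, and at an unadjusted p under 0.05, 3 were lower (3.06%, against 3.31% of all rows) and 22 higher (22.4%, against 4.26%) in ELL2 cko. Among rows that could have met the rule, 4.05% were lower and 5.66% higher. Without ELL2 cko -LPS replicates 1 and 2 the median was 0.40, 1 of the 98 was lower and 13 were higher. The 98 rows come from 12 genes, and rows of a gene are not independent of each other. With all arrays without LPS, the 22 higher rows included all 8 of Rap1gap2, and none of Pigk, Tg, Gorasp2, Rere or Zfp64.

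Counts by gene list are given beside the share over all genes that could have met the rule, of which 5.96% had a member row. A gene with more rows has more chances of a member, so the share of rows, 0.927% over all rows that could have met the rule, is given too. Vesicle traffic had the highest share among lists with more than 3 such genes: 6 of 17 genes (35.3%) and 21 of 699 rows (3.00%), in Gorasp2, Golga2, Copb1, Ap1g1, Rab5a and Vps13b. Of the 21 rows, 9 were in Gorasp2 alone. The median of the bright exon regions, members included, differed by -1.82 in Gorasp2, -0.803 in Golga2 and -0.625 in Copb1. In these genes the stable median of all exon regions thus did not extend to the bright ones. Golga2, a Golgi tethering protein, had a junction with 7.83, 7.76 and 8.05 in ELL2 cko +LPS, against 10.30, 8.87, 11.14 and 9.63 in WT +LPS. Copb1, a subunit of the COPI coat of Golgi vesicles, had 3 member rows, and the one with the largest difference had 9.06, 7.02 and 7.999 in ELL2 cko +LPS, against 10.36, 10.01, 10.35 and 9.61 in WT +LPS. Golga2 was even across the ELL2 cko arrays, and Copb1 was highest in replicate 1. In the other secretory lists few genes had a median within 0.5, and each of these had a bright row and could have met the rule: 3 of 44 measured genes of the unfolded protein response, of which Mbtps2, the protease that releases ATF6, had a member, and 3 of 44 of ER translocation and glycosylation, of which 0 had. Mbtps2 had 7.58, 6.97 and 4.80 in ELL2 cko +LPS, against 8.06, 8.20, 8.51 and 8.08 in WT +LPS.

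Of RNA processing factors, 2 of 24 elongation genes, 4 of 33 splicing regulators, 1 of 35 core spliceosome genes and 3 of 24 cleavage and polyadenylation genes had member rows. By rows the shares were 0.297%, 0.495%, 0.105% and 0.357% in that order, each below 0.927%. Srsf7, a serine and arginine rich splicing factor that regulates its own transcript, had a junction with 6.65, 5.27 and 6.01 in ELL2 cko +LPS, against 9.23, 8.57, 8.97 and 8.84 in WT +LPS. The gap between the groups was 1.92. Srsf11, of the same family, had 13.42, 12.75 and 12.58 in ELL2 cko +LPS, against 15.39, 14.46, 15.52 and 14.78 in WT +LPS. Srrm1, a coactivator of splicing, had 9.19, 8.73 and 8.74 in ELL2 cko +LPS, against 11.07, 9.81, 11.33 and 10.97 in WT +LPS. Hnrnph1, a splicing regulator that binds G-rich RNA, was the remaining one. In the rows shown for these 3 genes ELL2 cko +LPS replicate 1 differed from the WT +LPS mean by -2.25 to -1.61, and the Srsf7 row was at 8.39 to 9.84 in ELL2 cko -LPS and 6.69 to 11.64 in WT -LPS, a wide spread within WT.

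Nelfcd, a subunit of the negative elongation factor, had an exon region with 9.97, 8.64 and 9.51 in ELL2 cko +LPS, against 11.38, 10.29, 11.61 and 10.74 in WT +LPS. Supt6, an elongation factor and histone chaperone, had a junction with 9.89, 8.94 and 10.04 in ELL2 cko +LPS, against 11.85, 10.35, 11.31 and 11.20 in WT +LPS. In both genes WT replicate 2 was the lowest WT array and lay above the highest ELL2 cko array by 0.32 in Nelfcd and 0.31 in Supt6. Cpsf4, a subunit of the cleavage and polyadenylation factor that binds the AAUAAA signal, had 6.10, 6.41 and 6.60 in ELL2 cko +LPS, against 8.96, 7.22, 10.21 and 7.20 in WT +LPS. Pcf11, which joins cleavage to termination of transcription, had 8.12, 8.81 and 10.03 in ELL2 cko +LPS, against 11.50, 10.18, 10.30 and 10.41 in WT +LPS, with ELL2 cko replicate 3 below the lowest WT array by 0.15. Sympk, the scaffold of the cleavage complex, had 8.11, 6.23 and 6.34 in ELL2 cko +LPS, against 8.13, 8.71, 9.02 and 8.17 in WT +LPS, and in ELL2 cko replicate 1 it was just below the lowest WT value. Ddx46, a helicase of the early spliceosome, had 10.12, 7.13 and 7.80 in ELL2 cko +LPS, against 10.50, 10.20, 13.17 and 12.77 in WT +LPS, again with replicate 1 next to WT.

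Cell cycle genes had members in 5 of 24. E2f1, a transcription factor of S phase entry, had a junction with 6.51, 6.75 and 7.33 in ELL2 cko +LPS, against 9.95, 7.73, 9.91 and 8.94 in WT +LPS, and Kif15, a mitotic kinesin, one with 12.74, 11.81 and 11.40 in ELL2 cko +LPS, against 13.76, 13.20, 14.24 and 13.73 in WT +LPS. DNA replication and repair had 4 of 36, among them Chek1, the checkpoint kinase, Wrn, a RecQ helicase, and Xrcc6, the Ku70 protein of end joining. In these 3 genes ELL2 cko +LPS replicate 1 differed from the WT +LPS mean by -0.91, -1.07 and -0.74, and the mean of replicates 2 and 3 by -3.66, -3.68 and -3.38, in the same gene order. Their rows thus rested on replicates 2 and 3. Chromatin regulators had 5 of 50, cytoskeleton and adhesion 5 of 31, translation 3 of 31, ubiquitin and proteasome 2 of 31, kinase signalling 2 of 30 and metabolism 1 of 36. By rows, the shares in these 8 lists lay between 0.126% for metabolism and 0.715% for the cell cycle, with 0.212% for chromatin regulators, all below 0.927%. Kdm6a, Usp9x and Mbtps2 lie on the X chromosome, and their rows were lower in the all-female ELL2 cko +LPS group than in WT arrays of both sexes.

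Several lists had no member row: B cell receptor signalling (0 of 17), B lineage transcription factors (0 of 12), apoptosis (0 of 17), Toll-like receptor signalling (0 of 19), interferon response (0 of 13) and ribosomal proteins (0 of 30). Of the immunoglobulin constant regions and J chain 3 could have met the rule, and Ighm did.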

How the data were processed

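RNA of 15 samples was measured on exon and junction arrays. The deposited table holds log2 values made by the authors with RMA and a signal space transformation in the Affymetrix Expression Console, per the labels; versions are not given in the sources used here. Of 725678 rows, 437027 are exon regions and 282044 junctions. Of these exon regions and junctions, 580167 have a single gene symbol in the platform annotation, and 1584 symbols were updated through RefSeq synonyms (GRCm38.p6). The gene value is the median exon region of each array.

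The members, lists and tests were chosen with earlier results of these data known, so a list's count is no independent evidence. Named are the 12 genes with most member rows, the 10 largest falls relative to the gene (1 per gene), up to 3 genes per list, Ighm, and rows next to each limit; predicted genes, variable segments and genes without a current symbol (70 rows in 65 genes) are counted and not named. Trf, Slco3a1, Marchf8, Rin2 and Zap70 were named after their values were seen. The values of bright exon regions that are no members were added after seeing the data.

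The test was limma 3.58.1 (R 4.3.3) on the 8 arrays without LPS, two-sided, with Benjamini-Hochberg adjustment over all rows and calls at an adjusted p under 0.05. With simulated falls it was tested on these rows and arrays: of 200 changed rows each, it recovered 0, 64 and 167 for falls of 1, 2 and 4 log2 units. Per the labels each sample came from 1 mouse, so the p-values reflect how much arrays of a group differ. The correlation of same-numbered arrays' deviations between genotypes without LPS was 0.25, 0.01, 0.18 and 0.08 for numbers 1 to 4, so the numbers were not taken as pairs. Alternatives were other scalings, gene values and filters, and arrays left out. Probe sequences and row positions were not used here.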

Additional observations from a re-analysis of the deposited data

Results flagged for a closer look

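Of 168 groups of 4 arrays over the 56 member rows described one by one, 13 held an array far from the other 3 by Dixon's criterion, which chance alone meets in about 1 group in 20. That rate need not hold in WT +LPS, whose values the rule used. The 56 rows also share the same arrays, so the groups are not independent and the count is a description. In WT +LPS, replicate 3 was high for Zfp64 (12.06, the others 10.25 to 10.44), Cd44 (13.09, the others 11.97 to 12.04) and Nf1 (14.58, the others 14.11 to 14.16). In the same group replicate 2 was low for Herc1 (7.65, the others 8.32 to 8.46), Upf2 (7.14, the others 8.46 to 8.53) and Dst (9.86, the others 11.77 to 12.05). In ELL2 cko -LPS, replicate 2 was low for Usp9x (6.74, the others 8.44 to 8.58) and replicate 1 for Clasp2 (8.43, the others 9.09 to 9.19). In WT -LPS, replicate 3 was high for Cacna1s (7.21, the others 6.35 to 6.36) and low for Wrn (8.15, the others 9.40 to 9.56). There replicate 1 was low for Srrm1 (7.10, the others 8.13 to 8.29), Rictor (10.21, the others 11.47 to 11.67) and Srebf1 (4.09, the others 6.95 to 7.48).

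For the Cd44 junction every ELL2 cko array lay above every WT array without LPS (difference 1.73) and below every WT array with LPS (difference -1.89). The reversal between treatments was not tested, since the rule fixed the direction with LPS.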

How the results depend on the processing

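The count of rows that meet the rule was 1094, and 1014 to 1102 after a further quantile normalization, centring of arrays, a gene value from the mean of exon regions or one without the dimmest of them (below the 25th percentile). It was 573 with gene values from bright exon regions only, and 1162 or 1224 with 2 other readings of the gene difference; these 3 were added after seeing the data. It was 1701 with replicate 1 as the sole ELL2 cko +LPS array, and between 1035 and 2346 with each +LPS array left out in turn, highest without ELL2 cko +LPS replicate 1 and 1615 without WT +LPS replicate 2. With fewer arrays the condition of no overlap is easier to meet, so counts with arrays left out can rise for that reason alone. The cause of these moves was otherwise not tested. Without LPS, 0 members were called under any alternative run, for the row value or the splicing index, replicate block included (lowest adjusted p with the block 0.55 and 0.64). The members' median difference was -0.21 with and without the replicate block, -0.31 to -0.10 with each -LPS array left out in turn, and 0.07 without ELL2 cko -LPS replicates 1 and 2.

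For 25 rows described with a difference without LPS, 349 of 374 values kept their direction and 25 turned, all of rows not called. Without ELL2 cko -LPS replicates 1 and 2 together those that turned were Gorasp2 (0.015), Rere (0.468), Scnn1a (0.104), the Ighm junction (0.021), Cacna1s (-0.466), Pigk (0.49) and Hivep3 (-0.253). With single arrays left out the range was -0.13 to 0.457 for Zfp64, -0.121 to 1.773 for Rufy2, -0.434 to 0.123 for Rere, -0.277 to 0.148 for the Ighm junction, -0.55 to 0.061 for Scnn1a, -0.585 to 0.093 for Pigk, -0.317 to 0.441 for Cacna1s and -0.778 to 0.433 for Sox5.

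The ELL2 cko +LPS group had 3 arrays, and in 4 of 7 ELL2 cko arrays markers of other cells stood above the other arrays. Values near the upper end of the scale have little room for a difference, and rows near the lower end little room for a fall. In the simulation, with values drawn independently for each array, a fall of 1 log2 unit could not be called. The deposited values give no count of reads or probes behind a row, so precision rests on the number of arrays.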
